A study of Mus musculus with 38 samples.

Results

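Hbb-bt, Hba-a1 and Alas2 are genes of hemoglobin production, measured here in the striatum of adult mice. They were chosen by name: every probe whose platform symbol was one of these was taken, which gave 1 probe for each gene and 3 of the 8516 named genes on the array. The probes are ILMN_1235372 for Hbb-bt, ILMN_1212702 for Hba-a1 and ILMN_2675874 for Alas2, and all 3 passed the filter on dim probes. The study set the striatum of XXY males, a mouse counterpart of Klinefelter syndrome, beside that of XX males, XX females and XY males, and asked about feminization. All animals were of strain MF1 and aged 152 days. The groups with signal held 9 XXY males (code XXYSry), 8 XX males (XXSry), 9 XX females (XX) and 11 XY males (XYSry). The codes of the male groups all carry Sry, the testis-determining gene, so XX males carry Sry without being XXY or XY, and XX females lack it. How Sry is carried is not given in the sources used here, nor is the mother or litter of an animal. The labels call the animals biological replicates, and the p-values measure the spread between them.

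Adult hemoglobin joins alpha and beta globin chains, each of which holds a heme. Hba-a1 encodes an adult alpha chain and Hbb-bt an adult beta chain. Alas2 is the erythroid form of 5-aminolevulinate synthase, which carries out the first step of heme synthesis in red cell precursors, while Alas1 does so in most other cells. Alas2 is X-linked, so XXY and XX animals carry an extra copy relative to XY males. Young circulating red cells still hold globin and Alas2 RNA, brain tissue holds blood in its vessels, and globin RNA has also been described in some neurons. The labels do not say whether the animals were perfused. In whole tissue, more cells of a type and more RNA per cell cannot be told apart.

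The labels give 2 batches, and a letter closes each animal's code, a or b or the pair of them. No label explains these letters. They were taken here as a marker of the array run, which is an assumption, and every fitted difference rests on it. All XX males had letter a and all XX females letter b, while XXY males (2 with a, 1 with b, 6 with both) and XY males with signal (4 with a, 4 with b, 3 with both) held each kind. Letter and batch were tied within XXY and XY males. Their letter a animals were all of batch 1 and their letter b animals all of batch 2. Only their animals with both letters came from either batch. The 90th percentile of raw signal was 632 to 937 on letter a arrays and 1266 to 2209 on letter b arrays, and detected probes numbered 10089 to 12392 per array. Xist, the RNA of the inactive X chromosome, was detected in 9 of 9 XXY males, 8 of 8 XX males, 9 of 9 XX females and 0 of 12 XY males. The striatal genes Drd1, Drd2, Ppp1r1b, Rgs9, Pde10a and Tac1 were detected in 37 of 37 animals.

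The promoters of the 3 genes are shown as a description. Whether their patterns bear on the levels was not tested. Each line gives the 250 bases before the annotated start on the gene's own strand, from RefSeq, build GRCm38.p6, where the genes lie at chr7:103812524-103813923, chr11:32283672-32284486 and chrX:150547417-150570622. Capitals mark 4 patterns, searched on both strands. The GATA pattern was GATAA, which reads TTATC when it lies on the opposite strand. The next was CACCC, which then reads GGGTG. The next was CCAAT, which then reads ATTGG. The last, the TATA pattern, was TATAA, which then reads TTATA.
Hbb-bt, chr7:103813924-103814173 (minus strand): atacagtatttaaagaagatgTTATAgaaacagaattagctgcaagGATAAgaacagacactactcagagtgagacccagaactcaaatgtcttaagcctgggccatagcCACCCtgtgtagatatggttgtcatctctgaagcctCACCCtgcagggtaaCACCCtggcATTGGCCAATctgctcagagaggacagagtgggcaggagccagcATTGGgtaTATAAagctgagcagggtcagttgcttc
Hba-a1, chr11:32283422-32283671 (plus strand): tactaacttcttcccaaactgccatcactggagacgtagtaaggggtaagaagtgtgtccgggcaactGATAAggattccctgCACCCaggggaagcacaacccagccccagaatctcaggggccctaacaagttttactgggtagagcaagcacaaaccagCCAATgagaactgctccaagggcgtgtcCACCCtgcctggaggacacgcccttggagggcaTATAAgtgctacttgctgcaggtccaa
Alas2, chrX:150547167-150547416 (plus strand): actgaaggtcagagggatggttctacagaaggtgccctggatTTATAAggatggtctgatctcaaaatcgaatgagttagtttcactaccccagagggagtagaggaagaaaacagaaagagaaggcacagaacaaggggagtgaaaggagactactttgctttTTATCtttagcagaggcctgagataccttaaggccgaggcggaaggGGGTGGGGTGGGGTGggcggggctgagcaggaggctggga
These are the letter patterns known, in that order, for GATA factors, for Klf1-type factors, for CCAAT-binding factors and for the TATA box. All 3 promoters held GATAA or its complement once, starting 204 bases before the start in Hbb-bt, 182 in Hba-a1 and 86 in Alas2. CACCC or its complement occurred 3 times in Hbb-bt, 2 times in Hba-a1 and 3 times in Alas2, where the copies of GGGTG follow one another. Both patterns together occurred in 10.1% of the 32851 promoters of the same length, GATAA alone in 22.6% and CACCC in 52.0%. TATAA stood 28 bases before the start in Hbb-bt and 27 in Hba-a1, whereas in Alas2 it stood at 207, overlapping its own opposite-strand reading by all but a base. Hbb-bt also held the opposite-strand reading at 229, and 22.8% of promoters held the TATA pattern. The CCAAT pattern occurred in both globin promoters and 0 times in the Alas2 window, and 33.8% of promoters held it. These matches describe letters and not bound sites.

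The platform names 1 alpha and 1 beta gene of the adult loci. The promoter of Hba-a2, the neighbouring adult alpha gene, shared an unbroken run of 247 of 250 bases with that of Hba-a1. For Hbb-bs, the neighbouring adult beta gene, and Hbb-bt the longest unbroken run was 14 bases. Scattered differences also shorten such a run, and it describes promoters, not the RNA that a probe reads. Whether a probe also reads a neighbouring copy was not tested, since probe sequences were not used here, so each level may belong to more than its named gene.

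Hbb-bt was detected in 37 of 37 animals and varied more than almost any probe. Its median raw signal was 199 on letter a and 540 on letter b arrays, beside 142 and 212 for the dim Alas2. How far background correction widens the log2 spread of Hbb-bt was not tested. On the normalized log2 scale its lowest, median and highest levels were 7.03, 8.25 and 9.94 in XXY males, and 6.47, 7.45 and 8.88 in XX males. They were 7.18, 8.52 and 9.76 in XX females, and 6.07, 7.65 and 9.19 in XY males. The groups overlapped in every pairing, and the span was 2.41 log2 units or more in each, the least among XX males. The highest animals came from 3 groups, XXY male 5 at 9.94, XX female 7 at 9.76 and XY male 6 at 9.19. Means were 8.07 ± 1.01 (SD, n = 9) in XXY males, 7.60 ± 0.99 (SD, n = 8) in XX males, 8.47 ± 0.74 (SD, n = 9) in XX females and 7.77 ± 0.94 (SD, n = 11) in XY males. The normalized level differed 14.6-fold from the lowest to the highest animal. These were XY male 12 and XXY male 5, with raw signals of 189 and 626. Before any background correction the raw signal spanned 11.5-fold, between other animals, from 149 in XX male 2 to 1714 in XX female 7. Those had letters a and b, which differ in brightness, and letter a arrays alone ran from 149 to 411. After group, batch and run terms were fitted, the residual SD was 0.92 log2 units, at the 98.9th percentile of 12339 kept probes, whose median was 0.33. Among the 1234 probes of like level it stood at the 98.2nd percentile. The bead standard error, which covers the beads of a single array and no other source of error, was 3.64% to 8.73% of the probe's signal.

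Hba-a1 was detected in 37 of 37 animals and kept a narrower range. Its log2 levels (lowest, median, highest) were 13.11, 13.57 and 14.16 in XXY males, and 13.18, 13.73 and 14.19 in XX males. They were 12.66, 13.22 and 13.61 in XX females, and 11.90, 13.18 and 14.10 in XY males. All groups overlapped, and XY male 12 lay lowest at 11.90, below every animal of the other groups. That animal was also the lowest for Hbb-bt, at 6.07. Means were 13.59 ± 0.34 (SD, n = 9) in XXY males, 13.70 ± 0.29 (SD, n = 8) in XX males, 13.22 ± 0.27 (SD, n = 9) in XX females and 13.29 ± 0.61 (SD, n = 11) in XY males. Over all animals the level differed 4.90-fold and the raw signal 4.38-fold. The highest animal was XX male 7 by level and XXY male 7 by raw signal. Its residual SD of 0.37 lay at the 61.1st percentile of all kept probes and the 78.9th of probes of like level. Its bead standard error was 2.35% to 4.04% of the signal.

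Alas2 was dim. It was detected in 7 of 9 XXY males, 4 of 8 XX males, 8 of 9 XX females and 10 of 11 XY males. By letter it was detected on 9 of 14 letter a arrays, 13 of 14 letter b arrays and 7 of 9 with both. Its log2 levels (lowest, median, highest) were 5.45, 6.15 and 6.90 in XXY males, and 4.81, 5.92 and 6.95 in XX males. They were 5.31, 6.25 and 6.68 in XX females, and 4.88, 5.97 and 6.70 in XY males. The group medians lay closer together than the SD of any group. Means were 6.17 ± 0.52 (SD, n = 9) in XXY males, 5.94 ± 0.66 (SD, n = 8) in XX males, 6.11 ± 0.41 (SD, n = 9) in XX females and 5.94 ± 0.56 (SD, n = 11) in XY males. The residual SD was 0.51, at the 85.5th percentile of all kept probes. Levels near background are compressed by the offset added before the log, and 8 of 37 animals had no detected level. XY male 3, whose signal was not analysed here, had detection p-values of 0 for both globin probes and 0.0226 for Alas2.

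**Figure D1:**
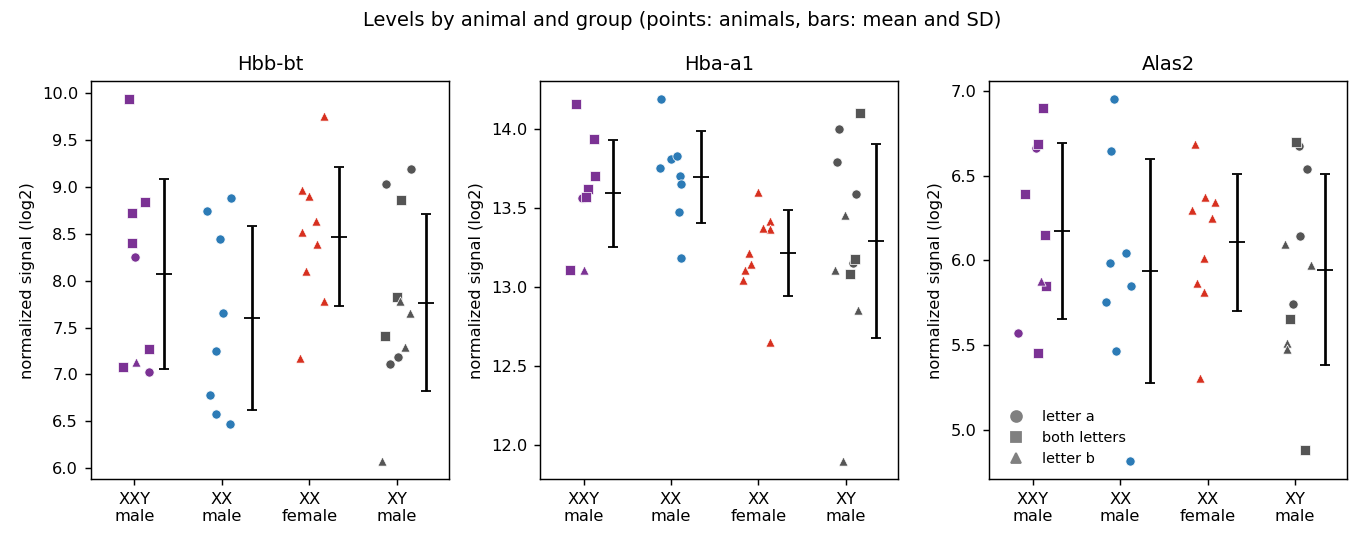
Normalized log2 signal of Hbb-bt, Hba-a1 and Alas2 (vertical axes) in each animal of the 4 groups (horizontal axes), with marker shape for the letter of the array code and bars for the mean and SD. The groups overlap for every gene, and Hbb-bt spreads from 6.07 to 9.94 over the animals.

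None of the 3 genes passed the test in any of the 6 comparisons of groups, each run over 12339 probes with limma and Benjamini-Hochberg adjustment. XXY males against XY males asks about an extra X chromosome in animals with a Y chromosome. Here 0 of 3 genes were called, against 0.0486% of all probes (6 probes, with 153 at an unadjusted p under 0.05). The differences were a log2 of 0.28 for Hbb-bt (SE 0.39, 95% interval -0.52 to 1.09), 0.28 for Hba-a1 (SE 0.16, interval -0.05 to 0.60) and 0.22 for Alas2 (SE 0.22, interval -0.22 to 0.67), with an adjusted p of 1.00 each in limma. Above the XY mean lay 5 of 9 XXY males for Hbb-bt, 7 for Hba-a1 and 5 for Alas2. The intervals hold a doubling of Hbb-bt as well as no difference. Without XXY male 5 the differences were 0.0187 for Hbb-bt and 0.10 for Alas2, and without XY male 12 that of Hba-a1 was 0.17. Among letter a animals alone, 2 XXY and 4 XY males, all 3 differences were negative, at -0.49 for Hbb-bt, -0.07 for Hba-a1 and -0.15 for Alas2. For Alas2, the X-linked member, the upper end of the interval was a 1.60-fold higher level in XXY males.

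XX females against XY males compares the usual sexes. All 3 fitted differences were positive, but 0 of 3 genes were called, against 0.0405% of all probes (5 probes, with 619 at an unadjusted p under 0.05). Hbb-bt was 2.38-fold higher by the fit (log2 1.25, SE 0.52, interval 0.20 to 2.30), with 8 of 9 XX females above the XY mean and an unadjusted p of 0.0214 (limma, adjusted p = 0.914). Alas2 differed by 0.63 (SE 0.29, unadjusted p 0.0365, 6 of 9 above) and Hba-a1 by 0.43 (SE 0.21, unadjusted p 0.0499, 4 of 9 above), with the same adjusted p of 0.914. The fitted and the plain differences were unlike. The plain group means, with neither run nor batch term, differed by 0.70 for Hbb-bt, 0.16 for Alas2 and -0.08 for Hba-a1. Without XY male 12 the fitted difference of Hba-a1 was 0.19. Among letter b animals alone (9 XX females, 4 XY males) the differences were 1.57 for Hbb-bt (SE 0.46), 0.46 for Hba-a1 (SE 0.28) and 0.56 for Alas2 (SE 0.24), with adjusted p of 0.278, 0.402 and 0.318 in limma. By labelled batch, Hbb-bt differed by -0.11 (SE 1.38) in batch 1 and by 1.64 (SE 0.45, adjusted p = 0.111 in limma) in batch 2. The batches differ in the letters compared. Batch 1 set 5 letter b XX females against XY males of which 4 had letter a and 1 both letters. Batch 2 held 4 XX females and 4 XY males with letter b.

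XX males against XY males had negative fitted differences, and 0 of 3 genes were called against 0.0405% of all probes (5 probes, with 879 at an unadjusted p under 0.05). They were -0.62 for Hbb-bt (SE 0.50, interval -1.64 to 0.39), -0.36 for Alas2 (SE 0.28, interval -0.92 to 0.21) and -0.02 for Hba-a1 (SE 0.20, interval -0.44 to 0.39), with limma's adjusted p of 0.631, 0.630 and 0.963. Plain means of Hba-a1 ran the other way, with XX males 0.41 above XY males. Without XY male 6 the difference of Hbb-bt was -0.38, and without XX male 4 that of Alas2 was -0.19. A fit that weights arrays by quality called Hbb-bt lower (log2 -1.21, adjusted p = 0.0477 in limma), and the same fit called 3008 probes in place of 5. Within letter a, which holds all XX males and 4 XY males, the differences were -0.47 (SE 0.62) for Hbb-bt, -0.02 (SE 0.20) for Hba-a1 and -0.47 (SE 0.38) for Alas2.

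XXY males against XX females asks how far XXY males differ from the usual female. The fit gave -0.97 for Hbb-bt (SE 0.54, interval -2.07 to 0.14), -0.15 for Hba-a1 (SE 0.22, interval -0.60 to 0.30) and -0.41 for Alas2 (SE 0.30, interval -1.02 to 0.21). Of the 3 genes 0 were called, against 0.0324% of all probes (4 probes, with 492 at an unadjusted p under 0.05), with limma's adjusted p at 0.935, 0.936 and 0.935. For Hba-a1 the plain difference of means was 0.38 and for Alas2 0.07, opposite in sign to the fit. Without XY male 12 the fitted difference of Hba-a1 was -0.0183.

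Males with an X pair were compared with and without a Y chromosome, as XXY against XX males. Hbb-bt differed by 0.91 (SE 0.50, interval -0.12 to 1.93), Alas2 by 0.58 (SE 0.28, interval 0.01 to 1.15) and Hba-a1 by 0.30 (SE 0.21, interval -0.12 to 0.72). Again 0 of 3 genes were called, against 0.0162% of all probes (2 probes, with 840 at an unadjusted p under 0.05). Alas2 had an unadjusted p of 0.0468 and an adjusted p of 0.665 in limma. Without XY male 12 the difference of Hba-a1 was 0.19. Within letter a, 2 XXY males against 8 XX males, the differences were -0.03 for Hbb-bt, -0.05 for Hba-a1 and 0.31 for Alas2. In letter a, then, the globin differences had the opposite sign to the whole fit.

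Between XX males and XX females only gonadal sex and Sry differ by the labels, and here letter and group coincide, so only the run term estimated in the other groups separates them. In those other groups letter a animals were all of batch 1 and letter b animals all of batch 2. The fitted differences were -1.87 for Hbb-bt (SE 0.75, interval -3.40 to -0.34), -0.99 for Alas2 (SE 0.42, interval -1.84 to -0.13) and -0.45 for Hba-a1 (SE 0.31, interval -1.08 to 0.17). Of the 3 genes 0 were called, against 0.0081% of all probes (1 probe, with 942 at an unadjusted p under 0.05), and limma's adjusted p was 0.568 for each. Without XY male 12 that of Hba-a1 was -0.21. The plain differences were smaller for Hbb-bt (-0.87) and Alas2 (-0.17) and positive for Hba-a1 (0.48). Array weights moved Hbb-bt to -2.51 (adjusted p = 0.0224) and Alas2 to -1.38 (adjusted p = 0.0251) in limma, in a fit that called 2358 probes.

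**Figure D2:**
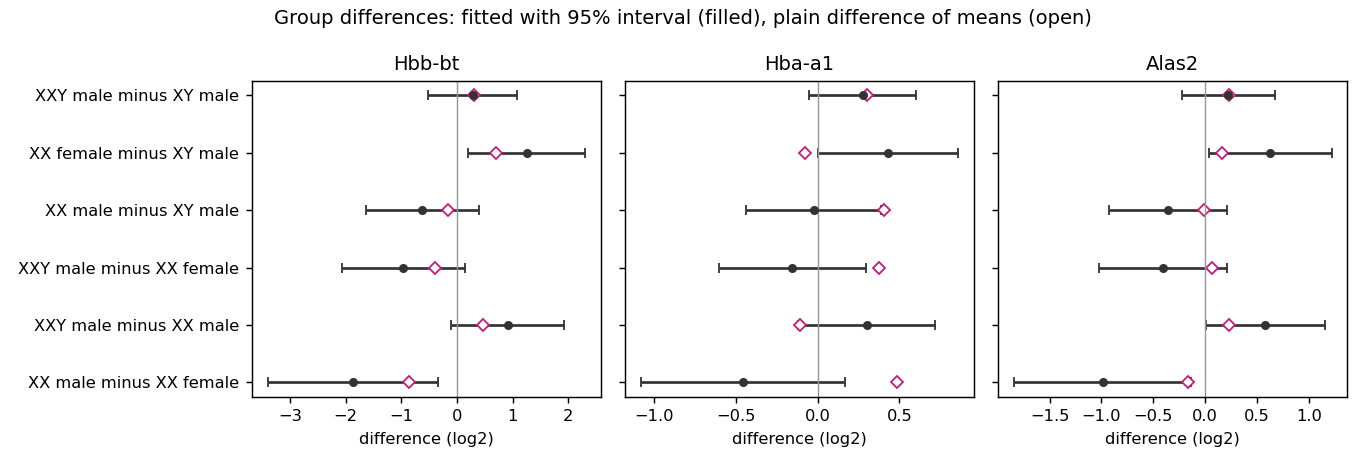
Difference in log2 signal (horizontal axes) for the 6 comparisons of groups (vertical axes), with filled points and 95% intervals from the fit with batch and run terms and open diamonds for the plain difference of group means. Fitted and plain values of Hba-a1 differ in sign in 5 comparisons, as for XX males minus XX females, at -0.45 and 0.48.

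The run term itself was measured for each gene. Letter b arrays read lower than letter a arrays by a log2 of 0.96 for Hba-a1 (difference -0.96, SE 0.26, limma adjusted p = 0.0128), which passed the test. The terms for Hbb-bt (-1.02, SE 0.63, adjusted p = 0.284 in limma) and Alas2 (-0.85, SE 0.36, adjusted p = 0.105) did not. Plain means of Hba-a1 were 13.66 on letter a and 13.10 on letter b arrays. XY male 12, a letter b animal, had a residual of -1.05 for Hba-a1, and the term without it is not given here. Letter and batch were also tied within XXY and XY males, as given above. Over all probes 872 read higher and 756 lower in letter b arrays. Batch 2 minus batch 1 was 0.44 for Alas2, 0.29 for Hba-a1 and 0.32 for Hbb-bt, with an adjusted p of 0.983 each in limma, and 0 probes of the array passed, with 206 at an unadjusted p under 0.05.

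The 3 genes rose and fell together from animal to animal. Over 37 animals the log2 levels of Hbb-bt and Alas2 correlated at r = 0.69 and rho = 0.73 (permutation, adjusted p = 3e-05 each). Hba-a1 and Alas2 correlated at 0.62 and 0.62 (permutation, adjusted p = 0.000105 each), and Hba-a1 and Hbb-bt at 0.49 and 0.46 (permutation, adjusted p = 0.00212 and 0.0048). All tests were two-sided with 100000 resamples and adjusted over the 3 pairs. On residuals of the fit, which remove group, batch and run, r was 0.66 for the globin pair, 0.65 for Hba-a1 with Alas2 and 0.68 for Hbb-bt with Alas2, with rho of 0.70, 0.76 and 0.65. The unadjusted permutation p for the globin pair was 1e-05, the smallest these resamples can give. Without the 2 animals farthest from the median of the first gene, the pooled r was 0.44, 0.61 and 0.68 for the same pairs over 35 animals.

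The relation was recomputed within each kind of array, since letter and group overlap. Among 14 letter a animals r was 0.70 for the globin pair, 0.63 for Hba-a1 with Alas2 and 0.74 for Hbb-bt with Alas2. Among 14 letter b animals it was 0.64, 0.78 and 0.60 in the same order, and among 9 with both letters 0.67, 0.87 and 0.82. All 9 passed at an adjusted permutation p below 0.05, exact for the animals with both letters. By Spearman's rho 8 of 9 passed, and Hba-a1 with Alas2 in letter a did not (rho 0.49, permutation p = 0.0784).

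Within single groups the sign was the same and the size varied. In XXY males r was 0.91 for Hbb-bt with Alas2 (exact permutation, adjusted p = 0.00307, n = 9), and 0.65 and 0.66 for the globin pair and Hba-a1 with Alas2 (exact, adjusted p = 0.0591 each). In XX males the globin pair had 0.76 and Hba-a1 with Alas2 0.86 (exact, adjusted p = 0.021 each, n = 8), and Hbb-bt with Alas2 had 0.67 (exact, adjusted p = 0.0714). In XX females Hba-a1 with Alas2 reached 0.93 (exact, adjusted p = 0.0019, n = 9), while the globin pair had 0.31 (exact, adjusted p = 0.41) and Hbb-bt with Alas2 0.49 (exact, adjusted p = 0.263). In XY males the values were 0.85 for the globin pair, 0.69 for Hba-a1 with Alas2 and 0.65 for Hbb-bt with Alas2 (permutation, adjusted p = 0.00258, 0.0279 and 0.031, n = 11). Differences in r between groups were not tested. Within groups rho lay between 0.50, for Hbb-bt with Alas2 in XY males, and 0.92, for the same pair in XXY males.

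Shared extremes show the pattern by animal. On residuals, 5 of 37 animals were among the 10 highest for all 3 genes, namely XXY male 5, XX male 7, XX female 3, XY male 5 and XY male 8. Another 5 were among the 10 lowest for all 3, namely XXY male 2, XXY male 4, XX male 4, XX female 8 and XY male 12. Every group had animals at both ends, but the fit removes each group's mean, so this says nothing about differences between groups. Among the 5 highest or the 5 lowest, 0 animals were shared by all 3 genes.

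**Figure D3:**
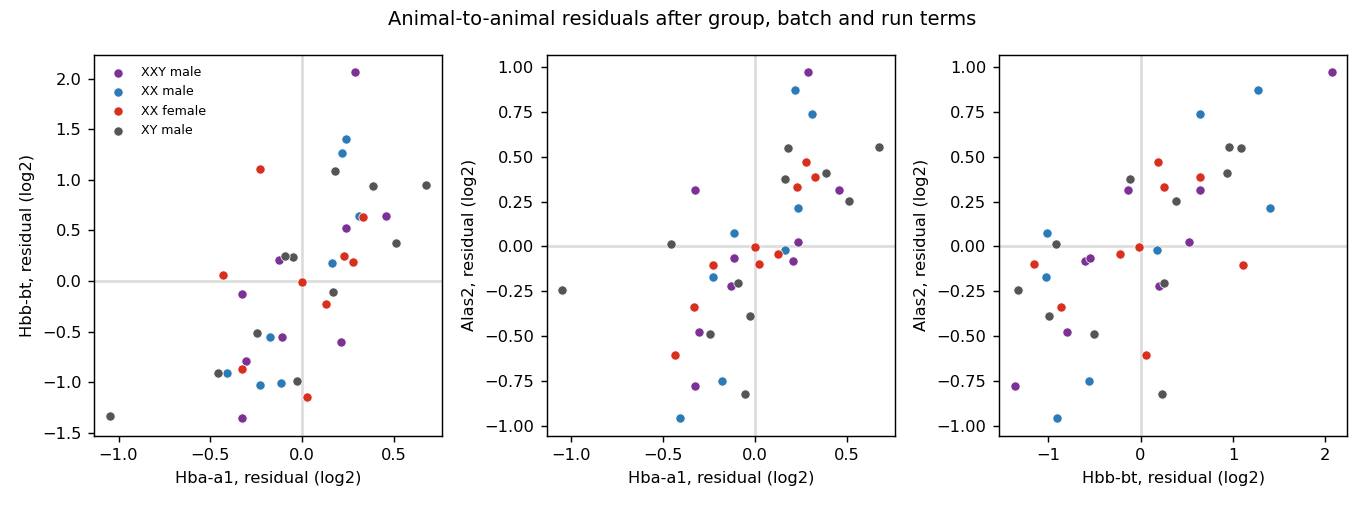
Residual log2 signal of each pair of genes after group, batch and run terms, 1 point per animal, coloured by group (37 animals). Over all animals the points run from the lower left to the upper right, with r of 0.66 for Hbb-bt against Hba-a1, 0.65 for Alas2 against Hba-a1 and 0.68 for Alas2 against Hbb-bt.

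The same measure was taken against every other kept probe, as a description, with the 37 animals shared by all probes. For Hba-a1 the nearest of 12338 probes was Hbb-bt (r = 0.66) and the next was Alas2 (0.65), ahead of Crtc2 at 0.59. For Alas2, 5 probes lay nearer than Hbb-bt and 16 nearer than Hba-a1, led by Prmt1 (0.73), Plcd3 (0.71) and Atg16l1 (0.70). For Hbb-bt, 1568 probes (12.7%) lay nearer than Hba-a1 and 1405 (11.4%) nearer than Alas2, led by Chmp2a, Coa6 and Mrps33 at 0.88 each. Thus Hbb-bt moved with a large part of the array. Correlations beyond 0.6 in size were held by 4309 probes (34.9%) with Hbb-bt, 85 (0.689%) with Alas2 and 3 (0.0243%) with Hba-a1.

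A single axis carried much of the residual variance once every probe was scaled to equal variance. Component 1 of these scaled residuals over all kept probes carried 38.8% of their variance. It correlated at 0.81 with Hbb-bt, 0.51 with Alas2 and 0.26 with Hba-a1. With component 1 removed, r was 0.79 for the globin pair, 0.62 for Hba-a1 with Alas2 and 0.53 for Hbb-bt with Alas2 (permutation, adjusted p = 3e-05, 7.5e-05 and 0.00081). Hba-a1 was then the nearest probe to Hbb-bt and to Alas2, and Hbb-bt the nearest to Hba-a1. From Hba-a1, Alas2 came next after Hbb-bt. From Alas2, 10 probes lay nearer than Hbb-bt, and from Hbb-bt, 78 lay nearer than Alas2.

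**Figure D4:**
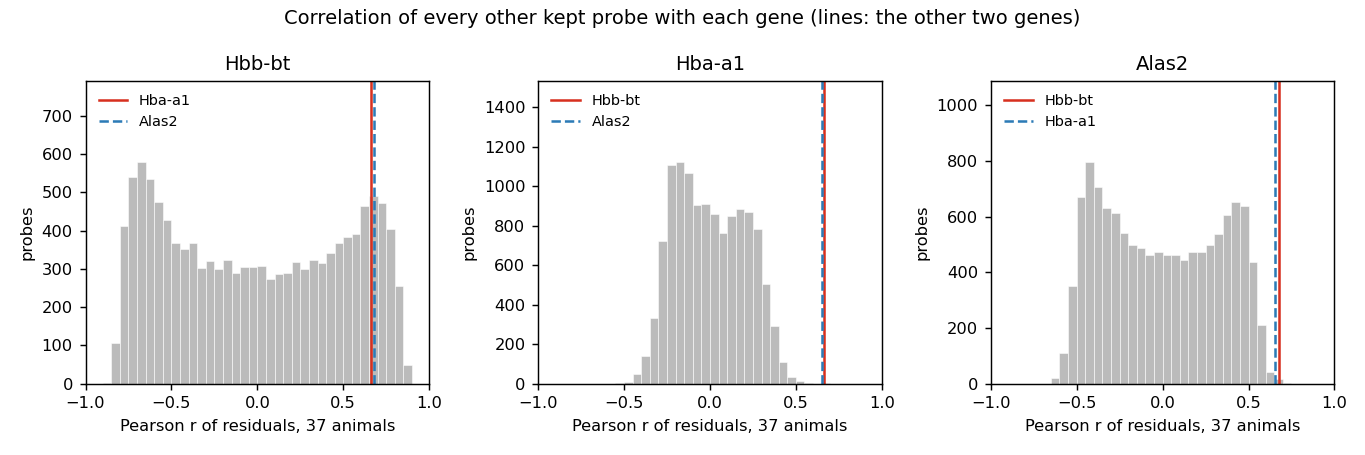
Number of kept probes (vertical axes) by Pearson r of residuals with each gene (horizontal axes, 37 animals), with lines at the remaining genes of the set. The lines lie at the right edge for Hba-a1 and Alas2, and inside the right-hand mass of probes for Hbb-bt, where 12.7% of probes exceeded Hba-a1.

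Ranked by mean r of residuals with all 3 genes, the most alike named genes were Prmt1 (0.66), an arginine methyltransferase, S100a13 (0.64), Sec13 (0.64), Egfl7 (0.63), Rpl34 (0.63), Clec2d (0.63), S100a6 (0.62) and Hyi (0.62). Over 12336 probes the central 95% of this measure ran from -0.51 to 0.54. Each of the 8 was nearer to Hbb-bt (0.76 to 0.87) than to Hba-a1 (0.41 to 0.48), so the ranking leans on Hbb-bt.

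Of 13 other measured genes of heme synthesis, 0 were called in any comparison. Over all probes 0.0081% to 0.0486% were called, so 0 calls in a list of this size is near the share of the whole array. Fitted differences were positive for 5 of 13 in XXY males against XY males, 8 in XX females and 1 in XX males against the same males. The medians were -0.02, 0.07 and -0.27, beside 0.00, 0.00 and -0.01 over all probes. For XXY males 5 of 13 were positive against XX females and 12 against XX males (medians -0.07 and 0.21), and for XX males against XX females 1 of 13 was (median -0.28). Alas1, the housekeeping counterpart of Alas2, had a mean r of -0.22 with the set. Its log2 level was 11.51 ± 0.15 (SD, n = 9) in XXY males, 11.66 ± 0.21 (SD, n = 8) in XX males, 11.43 ± 0.18 (SD, n = 9) in XX females and 11.51 ± 0.12 (SD, n = 11) in XY males. Fech, the enzyme that inserts iron into protoporphyrin to make heme, had a mean r of 0.10 and Urod, an earlier enzyme of the route, 0.31. Fech differed by -0.61 (SE 0.34) between XX males and XX females and by -0.24 between XXY and XY males, without passing. Uros was the lowest of the list in XX males against XX females, at -0.84. The nearest to the set were Tmem14c, a porphyrin carrier of erythroid mitochondria (0.56, 159th of 8441 named genes), and, of the heme and iron genes, Hebp1 (0.56, 148th) and Blvrb (0.55, 197th). These too leaned on Hbb-bt, with r of 0.74 to 0.82 against 0.31 to 0.35 with Hba-a1.

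The other globins measured were Ngb and Cygb, of neurons and of fibroblast-like and other cells. Ngb was lower in XX males than in XY males by the fit (-0.90, SE 0.40, unadjusted p 0.0307, adjusted p = 0.621 in limma) and did not pass, and Cygb differed by 0.27. Their mean r with the set was 0.36 and -0.08.

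Red cell genes were mostly ones that brain cells also use. Of 49 listed, 16 were on the array and all 16 were tested, and the membrane and maturation markers Slc4a1, Ahsp and Klf1 were not among them. Calls numbered 0 in every comparison, beside 0.0081% to 0.0486% of all probes. Positive differences numbered 5 of 16 for XXY, 6 for XX female and 6 for XX male against XY males, and 8 of 16 in each of the other comparisons. Sptb, the erythroid beta spectrin that neurons also make, differed most, by 1.38 between XX males and XX females and 0.91 between XX males and XY males, without passing. Its mean r with the set was -0.48. Tfrc, the transferrin receptor, had 0.47 and Car2, a carbonic anhydrase, -0.13. In the heme and iron handling list 0 of 14 genes were called in any comparison, near the same share of all probes.

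Markers of other blood cells were few: 4 neutrophil and monocyte genes (Lyz1, Lyz2, Mmp9, S100a8), 2 platelet genes and the lymphocyte gene Cd4 were tested. Calls among them numbered 0, beside 0.0081% to 0.0486% of all probes. Lyz2 is made by microglia as well. The mean log2 of the neutrophil and monocyte genes ran from 7.06 to 9.48 in XXY males, 7.24 to 8.54 in XX males, 7.37 to 9.31 in XX females and 6.68 to 8.90 in XY males. S100a8, a calcium-binding protein of neutrophils, differed by 1.23 between XX females and XY males (SE 0.55, unadjusted p 0.0313, adjusted p = 0.914 in limma). It was the highest of the 4 genes in that comparison, where their median difference was 0.42 and the lowest, of Mmp9, 0.09. Its plain means were 7.72 ± 1.04 (SD, n = 9) in XX females and 7.37 ± 1.23 (SD, n = 11) in XY males. On residuals this list correlated with Hbb-bt at r = 0.83, with Alas2 at 0.60 and with Hba-a1 at 0.39 (permutation, adjusted p = 8.25e-05, 0.000858 and 0.0413 over 33 pairs of gene and list), with rho of 0.82, 0.66 and 0.51. Without the 2 animals farthest from the median, r was 0.77, 0.47 and 0.36. With component 1 removed the values were 0.37, 0.39 and 0.42. The part of such cells in the results was not tested.

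Lists of the heme pathway, of red cell genes and of the tissue's own cells moved as well, mainly with Hbb-bt. Its r was 0.77 with heme synthesis genes (permutation, adjusted p = 8.25e-05), 0.49 with mural and meningeal genes, -0.74 with astrocyte genes, -0.70 with red cell genes, -0.50 with striatal projection neuron genes and -0.47 with endothelial genes, and the adjusted permutation p of these was 0.00963 or less. Spearman's rho had the same sign in each. The lists themselves followed component 1, at 0.96 for heme synthesis, 0.92 for neutrophil and monocyte, -0.85 for astrocyte, -0.80 for red cell and -0.78 for projection neuron and endothelial genes. With component 1 removed Hbb-bt had -0.07 with heme synthesis, -0.16 with red cell, -0.16 with astrocyte, 0.36 with projection neuron and 0.44 with endothelial genes. Alas2 had 0.50 with heme synthesis, 0.49 with mural and meningeal, -0.50 with astrocyte and -0.42 with red cell genes (permutation, adjusted p = 0.0262 or less). Hba-a1 passed by r with 1 of 11 lists, the neutrophil and monocyte genes, and by rho with mural and meningeal (0.43) and astrocyte genes (-0.40) too. It had 0.28 with heme synthesis (permutation, adjusted p = 0.178). Choroid plexus genes, which differed between animals from 7.53 to 10.27 in mean log2, had r between 0.12 and 0.17 with the 3 genes.

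**Figure D5:**
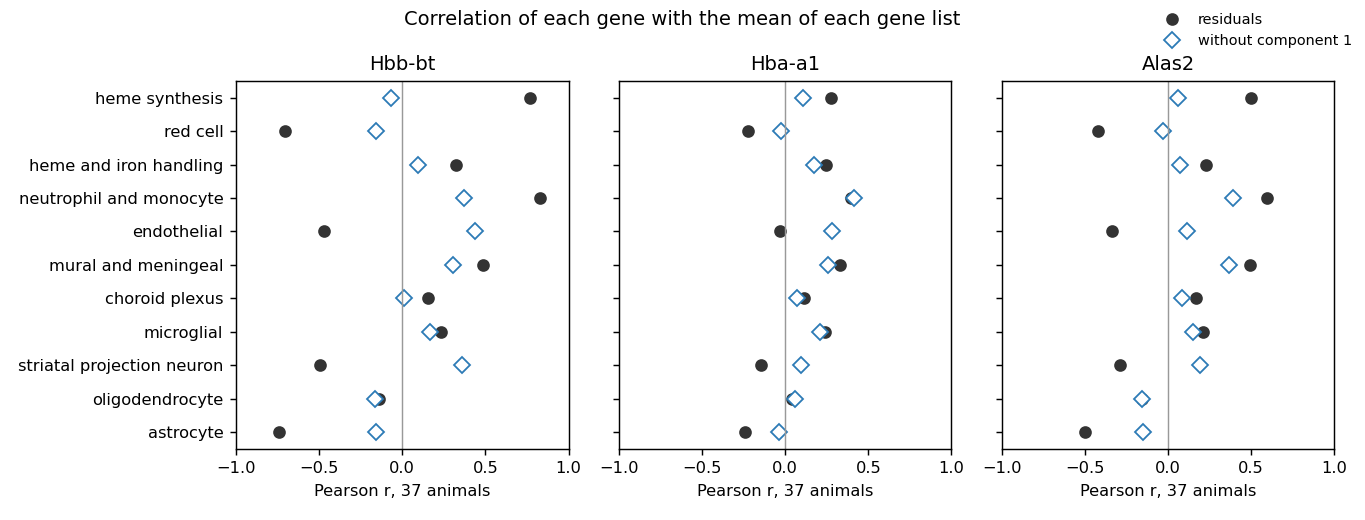
Pearson r over 37 animals (horizontal axes) between each gene and the mean of each gene list (vertical axis), on residuals (filled) and with component 1 removed (open). Hbb-bt lies at 0.77 with heme synthesis and -0.74 with astrocyte genes on residuals, and at -0.07 and -0.16 without component 1.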

How the data were processed

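Total RNA of the striatum was run on Illumina bead arrays, each carrying 25697 probes. Per the file headers, the deposited table gives for each probe and array a bead signal intensity on a linear scale, not normalized between arrays, a p-value of detection, the standard error of the bead signal, and the bead number (read as a score). It holds signal for 37 of 38 labelled animals. Columns whose code has both letters were used as 1 animal each. Their bead numbers include values midway between whole numbers, so they were taken as merged arrays, which the labels do not state. The authors also deposited log2 values for 12128 probes (column medians 8.09 to 8.12, scale and centring not given in the sources used here); limma is named in the submitters' processing notes. Rank correlations with the own array were 0.987 to 1.00, but 0.0624 to 0.0729 for XX males, so that table served only as an alternative without XX males. Columns left without a sample numbered 0.

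Signals were background-corrected, quantile-normalized and logged with neqc (offset 16, limma 3.58.1, R 4.3.3). The 12339 probes kept were detected (p below 0.01) in 8 animals or more. One limma fit (lmFit, eBayes) held the 4 groups, the labelled batch and the share of letter b arrays (0, 0.5 or 1, the run term), with Benjamini-Hochberg adjustment over all kept probes and a call at an adjusted p below 0.05. That the letters mark array runs, and that both letters count as 0.5, are assumptions made here. Group means are plain; differences and SE are from the fit. Correlations used permutation tests (scipy 1.17.1), exact below 10 animals. The fit was tested on simulated data. Gene symbols came from the platform annotation (11458 probes), of which 11454 matched RefSeq. Arrays have no count depth; their number and the signal over background limit precision. The comparisons against XY males share those animals.

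The members and gene lists were chosen with earlier results of these data known. Named were all member probes, preset heme and red cell genes where measured, list genes called in any comparison or at the extremes of a list, and the 8 named genes of highest mean r. S100a8, the lead neighbours of each gene, Tmem14c, Hebp1 and Blvrb were singled out after their values were seen. Alternatives were another background correction, offset, filter and model, subsets of arrays, each animal left out, and the deposited table; groups taken singly and removal of component 1 were added after seeing the data.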

Additional observations from a re-analysis of the deposited data

How the results depend on the processing

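Over 18 gene and comparison pairs, 227 of 252 values under the alternative settings kept their direction and their side of the threshold, 22 turned direction and 3 newly passed; the causes were not tested. Without the run term, Hba-a1 turned to -0.0775 (XX female minus XY male), 0.41 (XX male minus XY male), 0.38 (XXY male minus XX female), -0.11 (XXY male minus XX male) and 0.48 (XX male minus XX female), and Alas2 to 0.0254 (XX male minus XY male) and 0.0662 (XXY male minus XX female). Without the batch term Hba-a1 turned to 0.0716 (XX male minus XY male) and 0.00635 (XXY male minus XX female). For XXY male minus XX female it was 0.0760 with these groups alone and 0.0364 with the replicate block. With array weights Hbb-bt passed at -1.21 (XX male minus XY male) and -2.51 (XX male minus XX female), and Alas2 at -1.38 (XX male minus XX female). Without animals of both letters, XXY male minus XY male turned to -0.33 for Hbb-bt and -0.0533 for Alas2, and Hba-a1 to 0.0389 (XX male minus XY male). In batch 1 alone Hbb-bt turned to -0.22 (XXY male minus XY male) and -0.11 (XX female minus XY male), and Hba-a1 to 0.0310 (XX male minus XY male). In letter a alone XXY male minus XY male turned to -0.49 (Hbb-bt), -0.0714 (Hba-a1) and -0.154 (Alas2), and XXY male minus XX male to -0.0260 (Hbb-bt) and -0.0467 (Hba-a1).

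Leaving out each animal in turn moved no gene past the threshold, and only Hba-a1 in XX male minus XY male turned direction, in 5 of 37 fits, between -0.125 and 0.0648. Single animals moved other values by over 1.5 times: Hbb-bt in XXY male minus XY male lay between 0.0187 and 0.45, Alas2 there between 0.10 and 0.32, Hba-a1 there between 0.17 and 0.34, and Hba-a1 in XX female minus XY male between 0.19 and 0.55. Same-numbered animals of different groups had residual correlations of -0.59 to 0.68 (median 0.12 over 48 pairs, 26 above 0.1). Those with unlike numbers had -0.68 to 0.85 (median 0.01 over 463 pairs, 206 above 0.1). The numbers are those of the sample titles, and the array codes number some animals otherwise, so whether animals were paired stays unknown. With the replicate block Hbb-bt in XX female minus XY male was 0.58. A fit of XX males and XX females alone could not be made, since letter and group coincide.

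Probes past the threshold numbered 216 without the run term against 5 with it in XX female minus XY male, 192 against 5 in XX male minus XY male, 8 against 4 in XXY male minus XX female, 245 against 2 in XXY male minus XX male and 3349 against 1 in XX male minus XX female. With array weights they numbered 26, 3008, 8, 219 and 2358 in the same order, and in the other settings 0 to 15. Correlations between the genes fell short in XXY males alone for Hba-a1 with Hbb-bt (0.65) and with Alas2 (0.66), in XX males alone for Hbb-bt with Alas2 (0.67), and in XX females alone for Hba-a1 with Hbb-bt (0.31) and Hbb-bt with Alas2 (0.49). On unadjusted values 28 of 33 list correlations held. Hba-a1 turned with endothelial (0.0152) and oligodendrocyte genes (-0.0718). Hbb-bt with mural and meningeal genes (0.26) and Alas2 with red cell genes (-0.37) lost their call, and Hba-a1 with mural and meningeal genes (0.49) gained one. Alas2 was not detected in 8 of 37 animals, which limits its precision.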
